A study of Gallus gallus with 12 samples.

Results

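A set of 135 mRNAs was high in chicken liver at sexual maturity and at broodiness and low at the juvenile and peak laying stages, out of 18260 mRNAs measured (0.739%). The members were chosen by their stage means on the log2(FPKM + 1) scale, where FPKM is the fragment count of a transcript scaled to its length and to the mapped fragments of the library, and a stage mean is taken over the 3 livers of a stage. The lower of the high means had to exceed the higher of the low means by at least 1.5 on that scale, a distance called the gap here. The means of the high stages had to differ by less than 1, and so did those of the low stages. The choice used all 12 livers, so the levels, gaps and folds of the members are a description and carry no test.

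The livers were taken from female Luhua hens, a Chinese indigenous chicken breed, at the juvenile period (JP, day 60), sexual maturity (SM, day 133), peak laying (PL, day 220) and broodiness (BP, day 400), with 3 hens at each stage. Each liver gave a strand-specific library of ribosomal RNA-depleted total RNA. The labels name no treatment, and stage and age change together. The samples were whole liver, in which fewer cells of a type and less RNA per cell cannot be told apart. Libraries are named here by stage and replicate number.

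The liver of the hen changes its output over the reproductive life of the bird. Under oestrogen from the maturing ovary, hepatocytes make the yolk precursors, chiefly vitellogenins and the apolipoproteins of very low density lipoprotein, and raise the synthesis of lipid for the growing follicles. In broodiness the ovary regresses, prolactin is high and the hen stops laying and incubates. The members are listed by Ensembl transcript identifier, with no map from these identifiers to gene symbols at hand. They are therefore given by their rank among the members, either by gap or by level, which is the mean FPKM over the SM and BP livers. No member is assigned a function, and the tissue label was not checked against liver markers.

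The SM and BP libraries also differed from the JP and PL libraries in values of the whole library, and this moves with every difference reported here. Summed FPKM ran from 408296 to 539529 in the JP and PL libraries, whereas the 6 SM and BP libraries summed to between 688208 and 772041. Without the 2 most abundant members the sums were 406371 to 538114 and 548974 to 580074, which still did not overlap. The distance between these ranges was smaller than the FPKM of 1 abundant mRNA outside the set. That mRNA had 30891 to 40539 FPKM at SM and BP and 1.62 to 12.2 at JP and PL. A scaling factor was computed for each library as the median, over mRNAs detected in every liver, of its FPKM divided by their geometric mean. It ran from 0.685 to 1.04 at JP and PL and from 1.02 to 1.26 at SM and BP, and these ranges overlapped. The mapping summary of the study lists a lower mapped share for the SM and BP libraries than for the JP and PL libraries. Stage and library cannot be told apart where all 3 livers of a stage share such a feature.

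The gap of the 135 members ranged from 1.51 to 6.38 with a median of 1.92. It was above 2 in 58 members, above 3 in 18, above 4 in 11 and above 6 in 2. The mean FPKM of a member over the SM and BP livers ranged from 2.26 to 96346 with a median of 12.9, and over the JP and PL livers from 0 to 1044 with a median of 1.51. Most members were of moderate level in the high stages, with 55 below 10 FPKM, 62 between 10 and 100, 16 between 100 and 1000 and 2 above 1000. The share of members above 100 FPKM was 13.3%, beside 3.27% of the 16703 mRNAs that passed the filter on low values, which asked for more than 0.1 FPKM in at least 3 livers and which all 135 members passed. In the 132 members with a value above 0 in the low stages, the ratio of the mean FPKM of the high to the low stages was at least 3.21, had a median of 8.24, and was above 10 in 52 and above 50 in 20.

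**Figure D1:**
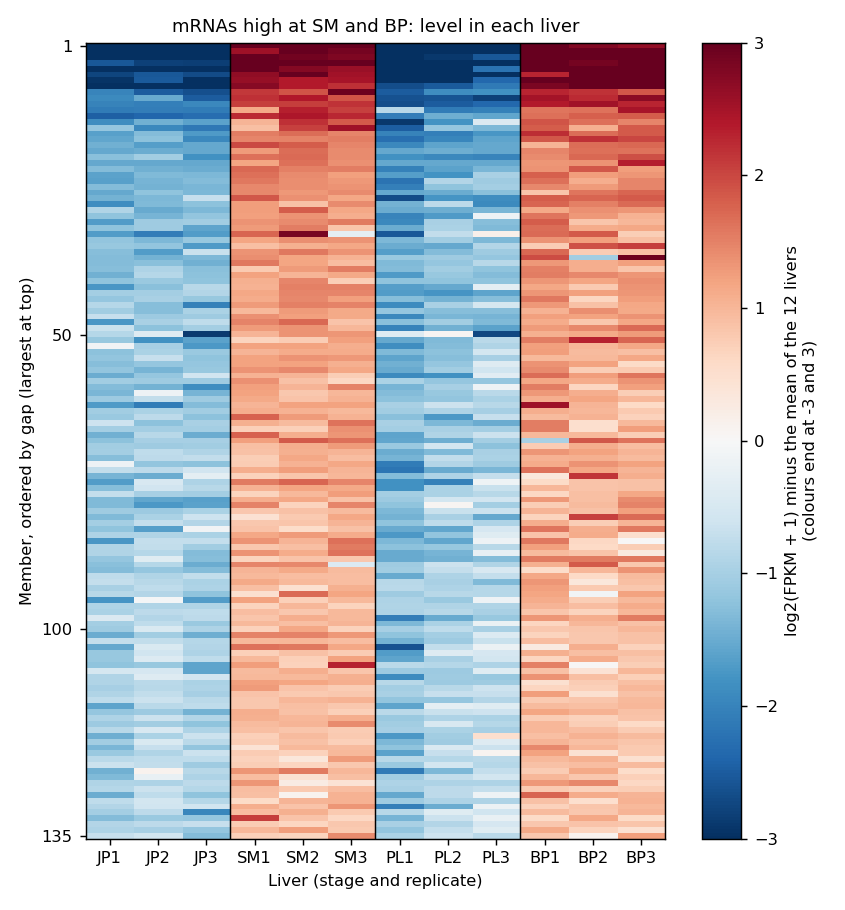
Heat map of the 135 members (rows, ordered by gap) in the 12 livers (columns), coloured by log2(FPKM + 1) minus the mean of the member over all 12 livers, with colours ending at -3 and 3. The 6 SM and BP columns are above the mean and the 6 JP and PL columns below it for nearly every member, with the strongest colours in the 18 rows at the top whose gap is above 3.

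The member with the largest gap, ENSGALT00000048120, went from almost no signal in the low stages to more than 60 FPKM. Its FPKM was 0.024, 0.033 and 0.036 in the JP livers and 0.0096, 0.017 and 0.0033 in the PL livers. In the SM livers it was 128, 160 and 181, and in the BP livers 126, 73.0 and 66.5. All 6 high livers thus lay far above all 6 low livers, with a gap of 6.38. In the deposited values the 3 BP livers lay below the 3 SM livers, BP1 only narrowly. The scaling factor was 1.11 for BP1 and 1.16 for SM1, so the order of these livers rests on the deposited scaling. On the log2(FPKM + 1) scale the means of this member were 7.28 ± 0.25 in the SM livers and 6.43 ± 0.50 in the BP livers, and 0.04 ± 0.01 in the JP livers and 0.01 ± 0.01 in the PL livers (SD, n = 3).

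The member ranked 2 by gap (6.02) was listed at 0 in each of the 6 low livers. Its FPKM was 52.0, 76.1 and 66.2 at SM and 99.4, 136 and 87.6 at BP. Here every BP liver was above every SM liver, the opposite order to the deposited values of the member with the largest gap. A further 2 members, ranked 21 and 96 by gap, were also listed at 0 in all 6 low livers, with means of 7.81 and 2.49 FPKM over the high livers. No fold is given for these 3.

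The member ranked 3 by gap (5.79), ENSGALT00000043486, was the most abundant of all members. Its FPKM was 781, 695 and 643 in the JP livers and 1202, 1290 and 1655 in the PL livers. It reached 91617, 71820 and 66802 in the SM livers and 102216, 118758 and 126861 in the BP livers. Even its low-stage level was above the high-stage level of most members. The stage means on the log2(FPKM + 1) scale were 9.46 ± 0.14 at JP and 10.42 ± 0.24 at PL and, in the high stages, 16.21 ± 0.24 at SM and 16.82 ± 0.16 at BP (SD, n = 3). PL thus exceeded JP by nearly the 1 that the rule allows.

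The member ranked 5 by gap (5.68) was ranked 2 by level and followed a similar course. Its FPKM was 635, 590 and 578 at JP, 60796, 46452 and 41332 at SM, 723, 821 and 1468 at PL, and 70024, 84803 and 79735 at BP. In both of these members the 3 BP livers were above the 3 SM livers, and PL3 was the highest of the low livers. The member ranked 8 by gap (4.87) and 3 by level repeated this order at lower values. Its FPKM was 15.9, 15.1 and 15.1 at JP, 925, 731 and 639 at SM, 21.3, 23.4 and 31.0 at PL, and 994, 1245 and 1341 at BP.

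The members ranked 4 and 6 by gap differed from these in having their lowest values at PL. The one ranked 4 (gap 5.78) had 3.11, 2.47 and 2.41 FPKM at JP and 1.01, 0.983 and 1.68 at PL, against 195, 206 and 218 at SM and 200.4, 173 and 229 at BP. Its SM and BP livers were interleaved. The one ranked 6 (gap 5.41) had 0.740, 1.02 and 0.833 FPKM at JP and 0.189, 0.366 and 0.478 at PL, against 72.7, 97.6 and 66.4 at SM and 55.9, 106 and 145 at BP. Its BP livers were spread on both sides of the SM livers, so the order of the high stages cannot be read from it.

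Among the 6 most abundant members, those ranked 4 to 6 by level had smaller gaps. The one ranked 4 (gap 2.97) had 118, 135 and 79.1 FPKM at JP, 885, 921 and 761 at SM, 79.8, 72.8 and 71.4 at PL, and 756, 939 and 1075 at BP. The one ranked 5 (gap 1.65) had 127, 126 and 115 FPKM at JP, 417, 418 and 399 at SM, 77.7, 99.0 and 131 at PL, and 402, 369 and 389 at BP. The one ranked 6 (gap 1.93) had 59.1, 91.0 and 56.9 FPKM at JP, 557, 346 and 408 at SM, 53.4, 86.9 and 104 at PL, and 318, 319 and 272 at BP. In all 3 the high and the low livers were well separated, and in the one ranked 6 the BP livers were all below the SM livers.

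**Figure D2:**
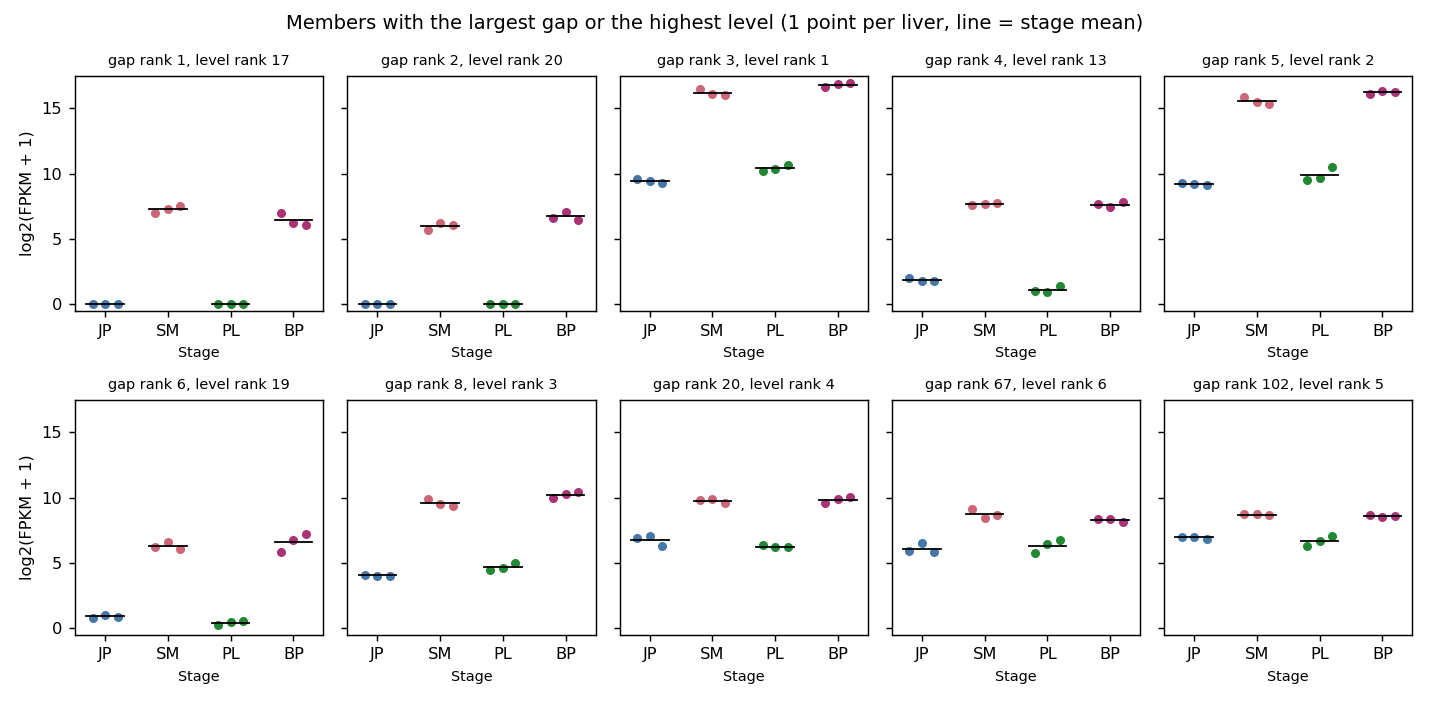
log2(FPKM + 1) by stage for the 10 members that are among the first 6 by gap or the first 6 by level, with 1 point per liver and a line at each stage mean. The points of the 6 SM and BP livers lie above those of the 6 JP and PL livers in each panel, and the low-stage levels range from 0 to above 10 on this scale.

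The members held a large part of the summed FPKM at SM and BP and almost none at JP and PL. Their share of the FPKM sum of a liver was 0.459%, 0.479% and 0.407% at JP and 0.653%, 0.717% and 0.935% at PL. At SM it was 22.0%, 18.0% and 16.7%, and at BP 24.2%, 28.0% and 27.8%. The BP livers were all above the SM livers, and the PL livers all above the JP livers. Nearly all of this came from the 2 most abundant members, which together held 15.7% to 20.9% at SM and 23.2% to 27.1% at BP, against 0.227% to 0.652% in the low stages. The other 133 members held 0.990% to 1.05% of the sum in the high livers and 0.180% to 0.283% in the low livers. FPKM is relative to the fragments of the whole library, so the values of the other mRNAs are not independent of these 2. The mean share over the high livers, 22.8%, rests on the most abundant member, which only just met the limit on JP and PL: it left the set without JP1, PL1 or PL2, when the share was 9.63%, 9.71% and 9.66%, and after division by the scaling factors, when it was 9.39%. Without PL3 the share was 27.8%.

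**Figure D3:**
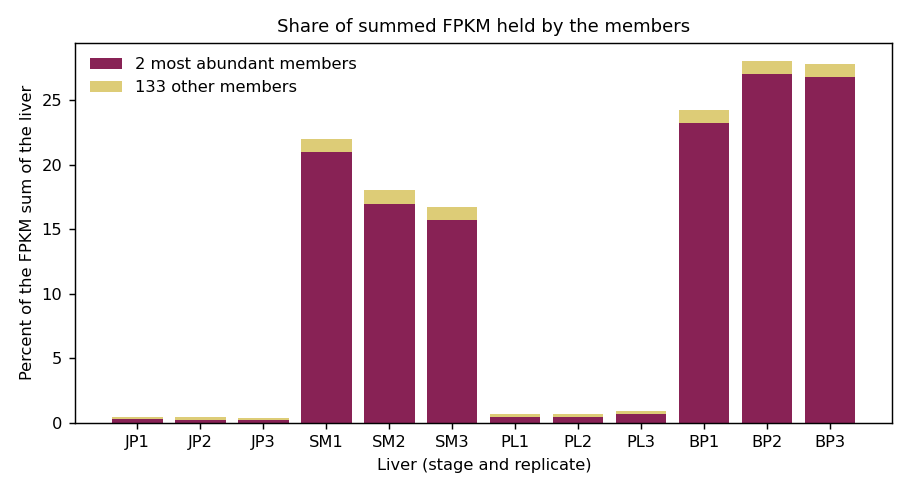
Share of the summed FPKM of each liver held by the members, in percent, with the 2 most abundant members in the lower part of each bar and the other 133 stacked on top. The SM bars reach 16.7% to 22.0% and the BP bars 24.2% to 28.0%, whereas the 6 JP and PL bars stay below 1%.

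The levels of the low stages differed widely among the members. The mean FPKM over the JP and PL livers was under 0.1 in 14 members, under 1 in 61 and under 10 in 114. A value of 0 in at least 1 of the 6 low livers was listed for 22 members, with 6 to 11 members at 0 in a single low liver. In the SM and BP livers 0 members were at 0, which the rule favours. Of all 18260 mRNAs, 487 were listed at 0 throughout the low livers and 2603 in at least 1 SM or BP liver. Above 1 FPKM were 64 to 83 members in a low liver, and 134 or 135 in a high liver. The rule favours this as well, and no share over all mRNAs is given beside it.

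At the median, replicates of a stage lay close together beside the gap, but not in every member. The median SD of a member over the 3 livers of a stage, on the log2 scale, was 0.21 at JP and 0.30 at PL, and 0.18 at SM and 0.24 at BP. All 6 SM and BP livers were above all 6 JP and PL livers in 134 of the 135 members, and in 112 the lowest high liver was more than 2 times the highest low liver. This complete separation was seen in 15.0% of all tested mRNAs, and the rule favours it. No such share is given for the 112. The exception, ranked 33 by gap (2.47), had 4.03, 2.83 and 4.04 FPKM at JP, 52.7, 115 and 12.3 at SM, 1.74, 8.73 and 16.8 at PL, and 51.3, 56.7 and 25.8 at BP. Its SM3 liver was below its PL3 liver. Some separated members were also widely spread. That ranked 37 by gap (2.31) had 9.31, 0.288 and 19.4 FPKM at BP (SD 2.08 on the log2 scale), beside 0.282 in PL2. That ranked 68 by gap (1.92) had 1.29, 15.3 and 12.8 FPKM at BP (SD 1.57).

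At the threshold, members and other mRNAs differed little. The member with the smallest gap (1.51) had 0.667, 0.775 and 0.0931 FPKM at JP, 3.40, 3.23 and 6.19 at SM, 0.391, 0.730 and 0.537 at PL, and 3.73, 1.86 and 5.28 at BP. The next, also with a gap of 1.51, had 1.04, 0.962 and 0.755 FPKM at JP, 6.79, 8.33 and 5.71 at SM, 0.724, 1.36 and 2.01 at PL, and 7.60, 5.17 and 4.38 at BP. The nearest mRNA outside (gap 1.495) had 3.82, 5.79 and 4.15 FPKM at JP, 14.4, 29.4 and 36.3 at SM, 10.02, 4.80 and 11.1 at PL, and 82.8, 31.3 and 35.5 at BP. The one after it (gap 1.49) had 0.970, 0.944 and 0.575 FPKM at JP, 8.30, 7.49 and 7.56 at SM, 0.947, 1.29 and 3.05 at PL, and 6.42, 6.04 and 6.63 at BP.

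The limit on the difference between stages of the same level left out some mRNAs with large gaps. A gap of at least 1.5 was found in 188 mRNAs, of which 53 were not members. The low stages differed too much in 26 of these, the high stages in 22, and both in 5. The widest gap of all, 11.9, belonged to an mRNA that failed only because its JP and PL means differed by 1.26, with PL higher. Its FPKM was 4.65, 1.62 and 2.002 at JP, 40539, 35692 and 39677 at SM, 3.68, 8.95 and 12.2 at PL, and 31576, 30891 and 36977 at BP. It was thus as strongly split as any member and more abundant at SM and BP than all but 2 of them. The reverse pattern, low at SM and BP by the same rule, was met by 12 mRNAs.

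The order of the high stages among the members depended on the scaling of the libraries. In the deposited values SM was above BP in 69 members and BP above SM in 66, so that SM was above BP in 51.1% of the members, beside 65.3% of the tested mRNAs. The median difference between SM and BP was 0.005 on the log2 scale. After division by the scaling factors BP was above SM in 95 members, which is 70.4%, beside 51.8% of the tested mRNAs. With an equal FPKM sum per liver SM was above BP in 86, for which no background share is given. In the deposited values each stage was the higher in 9 of the 18 members above 100 FPKM. Among the 11 members with a gap above 4, BP was the higher in 8. No background share or scaled count is given for these. Within the low stages JP was above PL in 75 members and PL above JP in 57, which is 55.6% of the members with JP higher, beside 55.7% of the tested mRNAs. This order also turned with the scaling, since PL was above JP in 67 members and JP above PL in 65 after division by the factors. PL was then higher in 49.6% of the members, beside 50.5% of the tested mRNAs. With equal sums PL was above JP in 76 and JP above PL in 56, again without a background share.

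The comparisons between stages used limma on log2(FPKM + 1) over all 12 livers and all 16703 tested mRNAs, where an mRNA was called if its Benjamini-Hochberg adjusted p was under 0.05 and its fold change was 1.5 or more. The rule had used the same stage means, so the member counts are printed beside the background and nothing is read from them. All 135 members were called higher at SM than at JP, beside 20.9% of tested mRNAs, and higher at BP than at JP, beside 16.4%. All were called higher at SM than at PL, beside 25.8%, and higher at BP than at PL, beside 18.8%. After division by the scaling factors these background shares were 11.2%, 11.8%, 10.6% and 10.2%, and 133 to 135 members were called. In the deposited values a call in all 4 was made for 7.48% of tested mRNAs. The 4 comparisons share their livers in pairs. The median log2 difference of the members was 2.21 for SM against JP and 2.18 for BP against JP, beside 0.22 and 0.14 over all tested mRNAs.

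Between SM and BP 0 members were called, and the smallest adjusted p was 0.0843, for ENSGALT00000048120, whose level at BP differed from that at SM by -0.86 on the log2 scale. The background was 0.461% of tested mRNAs higher at BP and 0.700% higher at SM. At an unadjusted p under 0.05 were 10 members (7.41%), beside 14.1% of tested mRNAs. After division by the scaling factors 1 member was called higher at BP, beside 0.563% of tested mRNAs higher at BP and 0.443% higher at SM. With a liver left out, 1 was called higher at BP without JP2 (beside 0.353% and 0.515%) or PL3 (0.754% and 1.75%). Without BP1, 1 was called higher at SM, beside 0.473% higher at BP and 0.587% higher at SM. In the deposited values of all 12 livers, 3 members were called higher at PL than at JP, beside 6.58% of tested mRNAs. Higher at JP were 8, beside 12.6%. The balance turned with the scaling, to 7 higher at PL and 6 at JP after division by the factors (9.79% and 9.66% of tested mRNAs), and to 10 and 6 with equal sums (13.2% and 8.07%). The member ranked 4 by gap was among those higher at JP (log2 difference of PL from JP -0.73, limma adjusted p = 0.00703), and the member ranked 8 by gap among those higher at PL (0.66, adjusted p = 0.0269). The rule limits both of these differences to less than 1, so few calls among the members do not show that the stages were alike.

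The median level of the members in each liver gives the pattern without regard to the most abundant ones. On the log2(FPKM + 1) scale it was 1.17, 1.38 and 1.25 at JP, 3.78, 3.87 and 3.82 at SM, 0.86, 1.38 and 1.51 at PL, and 3.93, 3.77 and 3.90 at BP. The stage means of this median were 1.26 ± 0.11 at JP and 1.25 ± 0.34 at PL, below the 3.82 ± 0.05 at SM and 3.87 ± 0.09 at BP (SD, n = 3). The median over all tested mRNAs was 1.54 to 1.996 in the low livers and 2.001 to 2.26 in the high livers, a shift in the same direction and of smaller size. The libraries JP2, PL3 and BP2 had nearly equal factors of 1.018, 1.045 and 1.017, and their median member levels were 1.38, 1.51 and 3.77. The rule had used these livers, so this order was set by the choice, and a library cause was not tested. PL1, with the lowest factor (0.685), had the lowest median of all livers and was the lowest PL liver in 97 of the 131 members with a signal at PL, while PL3 was the highest in 78. These are 74.0% and 59.5% of the members, beside 58.8% and 67.0% of the tested mRNAs with a signal at PL.

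**Figure D4:**
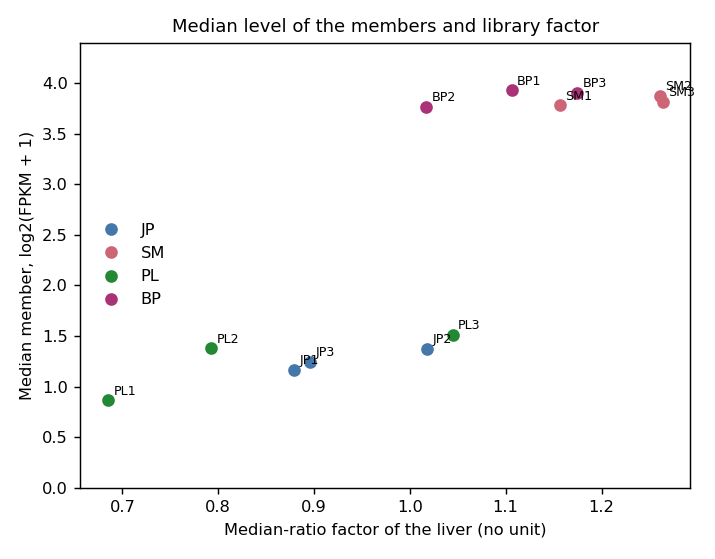
Median log2(FPKM + 1) of the 135 members in each liver (vertical axis) against the median-ratio factor of the library (horizontal axis, no unit), coloured by stage. The 6 SM and BP livers lie between 3.77 and 3.93 and the 6 JP and PL livers between 0.86 and 1.51, a split set by the choice of the members.

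The number of members depended on how the libraries were scaled. When each liver was divided by its factor, 77 of the 135 still met the rule and no other mRNA joined them. The median difference between the high and the low stages fell from 2.21 to 1.90 in the members and from 0.20 to 0.02 over all tested mRNAs. Of the 58 members lost, 55 fell below the gap of 1.5, down to 0.96, and 3 kept the gap but failed another limit. The most abundant member was among these 3, since its JP and PL means then differed by 1.13. All 58 members with a gap above 2 kept a scaled gap of at least 1.5, and 10 of the 11 with a gap above 4 remained members, with scaled gaps of at least 3.76 in the 11. The sizes given here for members with gaps near 1.5, that ranked 5 by level among them (scaled gap 1.34), therefore rest on the scaling of the deposited FPKM. The reverse pattern was met by 24 mRNAs after scaling.

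**Figure D5:**
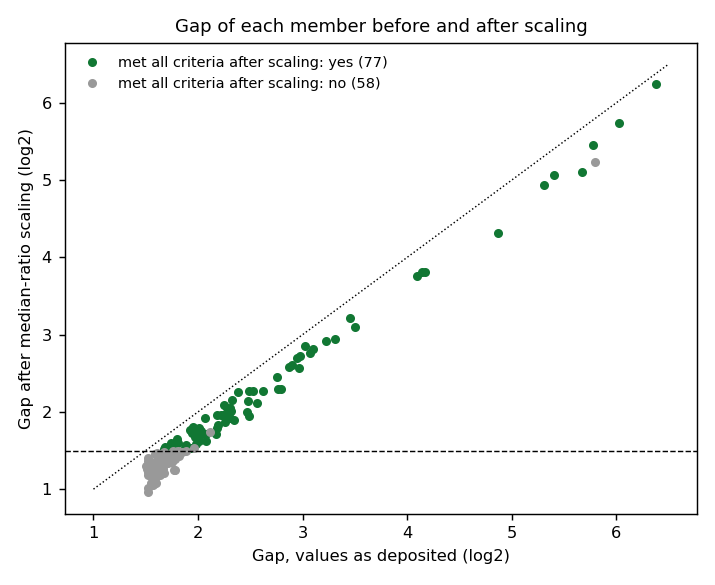
Gap of each of the 135 members after median-ratio scaling of the libraries (vertical axis, log2) against the gap in the deposited values (horizontal axis, log2), with the threshold of 1.5 dashed and equality dotted. The 77 members that met the rule after scaling are dark, and the 58 that did not are grey and lie mostly at gaps below 2.

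A liver that took no part in the choice can be set against members chosen from the other 11. Leaving out 1 liver at a time, the rule gave 119 to 154 members, of which 113 to 132 were among the 135, and 83 mRNAs were chosen in all 12 rounds. The value of the left-out liver was on the side of its own stage, relative to the midpoint between the high and the low means, in 1584 of 1638 cases (96.7%). These cases are not independent, since the 83 mRNAs are counted in every round and each round rests on 1 left-out liver. The share was lowest for PL3, where 18 of 154 values lay on the side of SM and BP (88.3% on its own side), and it was 100% for PL1. In 95.5% or more of the members chosen without it, each left-out liver lay beyond every liver of the opposite stages. No share over all tested mRNAs is given beside these counts, so how often other mRNAs did the same is not shown. The left-out livers share the library features described above with the other livers of their stage.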

How the data were processed

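Liver RNA of 12 hens was measured, 3 at each of 4 stages. The authors aligned strand-specific reads to the chicken genome (Gallus_gallus-5.0) with HISAT2 2.1.0, and the deposited FPKM per transcript were made with StringTie 1.3.3. FPKM keep no read counts: the commonest ratio between low values of a library and JP1 took only 1.27% to 2.07% of them, so depth was not recovered, and no counting interval is given. All 12 columns of each table were matched to the labels.

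Values were used as deposited, on the log2(FPKM + 1) scale. The rule was applied with Python 3.11.15 (pandas 2.3.3). limma 3.58.1 (R 4.3.3) was fitted to all 12 livers with a mean per stage and a trend, for mRNAs above 0.1 FPKM in at least 3 livers, and the fit was tested on simulated data. Members and lists were chosen with earlier results of these data known. Values per liver are given for the first 6 members by gap, the first 6 by level, and the mRNAs nearest the threshold. The exception to complete separation and the mRNAs left out by the limits were named after their values were seen. So were the separated members with a wide spread. Alternatives covered the scaling, the value added before the logarithm, the filter, the gap, the fit, the replicate block and each liver left out. Sequences, gene names and positions were not used here.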

Additional observations from a re-analysis of the deposited data

How the results depend on the processing

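Of 218 values recomputed under alternatives, 184 stayed near the reported one and 34 did not. Near means within 1.5 times for a count and within 1 SD for a level or share. The 184 include the calls across the high and low stages, which the rule had set. They also include values under the filter at 1 FPKM, which all 135 members passed. The SD of the share pools the SM and BP livers, whose mean shares were 18.9% and 26.7%. Counts were compared by their total, and the balance of JP and PL calls turned under both scalings. The number of members was 77 with median-ratio scaling, 423 with 0.1 added before the logarithm (117 of them among the 135), 450 at a gap of 1 and 58 at a gap of 2, and 119 to 154 with a liver left out. With an equal FPKM sum per liver, a setting chosen after seeing the data, it was 90, of which 81 were among the 135. The mean share of the summed FPKM over the SM and BP livers, 22.8% ± 4.79 (SD, n = 6), was 9.39% with median-ratio scaling and 9.33% with equal sums, each with members chosen again, and 1.01% without the 2 most abundant members, which was also added after seeing the data. It ranged from 9.63% to 27.8% with a liver left out: it was below 10% without JP1, PL1 or PL2, when the JP and PL means of the most abundant member differed by more than 1, and 27.8% without PL3, when the mRNA with a gap of 11.9 joined. Members chosen again had a median level of 1.12 at JP and 3.61 at SM with median-ratio scaling. With equal sums it was 1.09 at JP and 3.71 at BP. With 0.1 added before the logarithm it was -1.44 at JP and -1.52 at PL, below the 1.22 at SM and 1.17 at BP. With a liver left out it was 1.14 to 1.35 at JP, 3.73 to 3.92 at SM, 1.10 to 1.37 at PL and 3.76 to 3.94 at BP. Calls of members in the 4 comparisons across the high and low stages stayed between 128 and 135, which the rule had set. The background moved more. For PL versus BP, 18.8% of tested mRNAs were higher at BP in the main fit. This became 6.20% with equal sums (128 members called, 21.8% of mRNAs higher at PL) and 24.6% without PL3. Between JP and PL the 11 calls became 20 with 0.1 added before the logarithm. The background was then 8.62% of tested mRNAs higher at PL and 15.0% higher at JP. In a fit of the 6 livers alone 2 were called, beside 3.65% and 6.69%. With a liver left out 6 to 13 were called, 6 without JP1 (beside 4.67% and 11.3%) and 7 without PL1 (beside 7.75% and 8.85%). The 13 were called without PL3, beside 6.02% and 18.8%. Between SM and BP the 0 calls became 1 higher at BP with median-ratio scaling and 0 to 1 with a liver left out. The 1 was higher at BP without JP2 or PL3 and at SM without BP1. Same-numbered livers showed no pairing as a whole, with a correlation of their deviations of -0.11 to 0.07 over 18 pairs of libraries. A pairing that touches only some mRNAs was not tested, and the labels do not say what the replicate numbers mean. The fit with the replicate block called 10 members between JP and PL, beside 6.24% higher at PL and 12.5% higher at JP. It called 0 between SM and BP and 135 in the other comparisons. Without read counts, the counting error of members listed near 0 is unknown.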

Other observations

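Some ratios between abundant members differed between the high and the low stages and others did not, a description chosen after the values were seen. The most abundant member had 98.3 to 105 times the FPKM of the member ranked 3 by level in the SM livers and 94.6 to 103 times in the BP livers, but 42.6 to 49.0 times in the JP livers and 53.4 to 56.5 times in the PL livers. The ranges of this ratio in the high and the low stages did not overlap. The ratio of the member ranked 3 by level to that ranked 4 by level split as well. It was 0.793 to 1.05 at SM and 1.25 to 1.33 at BP, but 0.111 to 0.191 at JP and 0.267 to 0.435 at PL. The rule had used these values, so these splits are a description and carry no test, and a library cause was not tested. Other ratios did not split in this way. The member ranked 3 by level had 3.75 to 4.91 times the FPKM of that ranked 7 by gap at SM and 3.90 to 4.01 times at BP. At JP it had 3.41 to 5.28 times and at PL 6.20 to 10.2 times, so that the JP livers overlapped the high livers. The most abundant member had 1.11 to 1.23 times the FPKM of the second at JP, 1.51 to 1.62 times at SM, 1.13 to 1.66 times at PL and 1.40 to 1.59 times at BP, so that the PL livers overlapped the high livers.

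The spread of the members between livers of the high stages was a median SD of 0.236 on the log2 scale. It was above the 0.188 of 8359 other mRNAs whose level at SM and BP lay within most of the range of the members. Levels were not matched inside that range, and the rule had used these livers, so the difference is a description. Another 2 abundant mRNAs had large gaps without being members. One (gap 2.67) had 2561, 1729 and 3601 FPKM at JP, 16266, 17929 and 14143 at SM, 328, 569 and 726 at PL, and 17624, 17941 and 19455 at BP, with JP above PL by 2.29. The other (gap 4.91) had 31.0, 19.6 and 32.4 FPKM at JP, 1032, 809 and 711 at SM, 5.24, 6.64 and 10.9 at PL, and 1438, 1510 and 2586 at BP, with JP above PL by 1.76 and BP above SM by 1.08.

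The same rule applied to the 16930 long noncoding RNAs gave 19 (0.112%), with a median gap of 1.998, a largest gap of 3.78 and a median level of 8.11 FPKM at SM and BP. Of these, 8 were listed at 0 in all 6 JP and PL livers, and 0 long noncoding RNAs showed the reverse pattern. After median-ratio scaling 13 met the rule.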
